A study of Mus musculus with 28 samples.

Results

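Interleukin-17 (IL-17) acts through a receptor that contains the IL-17RA chain and the adaptor Act1, and in many cell types it activates the transcription factor NF-kB, induces the C/EBP factors and stabilizes short-lived mRNAs. The chemokines Cxcl1, Cxcl2 and Ccl2 and the cytokine Il1b are textbook products of this kind of signal, and in liver they are known for drawing neutrophils and monocytes. The same signal induces its own brakes, among them Nfkbia, Tnfaip3 and the RNase Zc3h12a, together with the NF-kB cofactor Nfkbiz and the factors Cebpb and Cebpd. These 10 IL-17-induced chemokine and NF-kB feedback genes were taken by name, after mapping of Ensembl identifiers to symbols. Of them 9 were among the 22187 genes of the deposited expression table, and Cebpd was not analysed here. All 9 are protein coding, and they are described in all 28 liver libraries.

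Livers came from C57BL/6 mice that had all received the carcinogen diethylnitrosamine (DEN) at 25 mg/kg, by intraperitoneal injection, when 2 weeks old. Il17ra, the gene of the receptor chain, was floxed in every mouse. In dHEP mice (AlbCre, Il17ra flox/flox) a Cre transgene under the albumin promoter deletes it in hepatocytes, so other liver cells keep the receptor, and FF mice carried Il17ra flox/flox without Cre. For the next 18 weeks mice were on chow or on alcohol, a diet labelled HFD_alcohol and described elsewhere as liquid EtOH. Tumors and non-tumor liver were sequenced in dHEP mice on alcohol (n = 4 libraries of each tissue), FF mice on alcohol (n = 4), dHEP mice on chow (n = 3) and FF mice on chow (n = 3). The number in a sample name was taken as the animal. By these numbers the same animals gave both tissues in every group but FF chow, where tumors came from FF-167, FF-168 and FF-169 and non-tumor liver from FF-157, FF-158 and FF-159. Diet cannot be told apart from the cohort of animals, and the labels give no sex.

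Values are CPM (counts per 1000000 per library), and libraries held an estimated 9.57 to 17.82 M reads (M, 1000000). Differences are log2 fold changes of CPM + 1 from limma ± standard error (SE), which understate the change of genes near or below 1 CPM, and genes with an adjusted p below 0.05 (Benjamini-Hochberg over all tested genes) were called. CPM are given as mean ± standard deviation (SD). In bulk tissue, fewer cells of a type and less RNA per cell cannot be told apart. In non-tumor liver Il17ra read 8.34 to 13.0 CPM in dHEP mice and 14.7 to 31.0 CPM in FF mice, with no overlap. In tumors it read 8.38 to 29.4 CPM in dHEP mice and 20.8 to 33.9 CPM in FF mice, and the tumor libraries labelled dHEP-520 (alcohol, 28.2 CPM) and dHEP-155 (chow, 29.4 CPM) lay within the FF range. Tissue and genotype differences and tumor correlations were therefore also computed without them, and those values stand beside the results they move. Hepatocyte markers summed to 88520 to 187700 CPM in tumors and 51050 to 95880 CPM in non-tumor liver, with 3 of the 10 higher in tumors (Alb, Apoa1 and Serpina1a) and 7 lower. Tumor markers summed to 348.7 to 5786 CPM in tumors, against 30.27 to 733.8 CPM in non-tumor liver.

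RefSeq promoter windows (GRCm38.p6, 250 bases before to 50 after the annotated start) existed for 7 of the members. Stretches of 3 of them are shown because they carry the NF-kB consensus, whose letters are in capitals, in front of a neutrophil chemokine pair and of the gene of the NF-kB inhibitor that is itself an NF-kB target.
Cxcl1 (chr5:90891159-90891199, plus strand): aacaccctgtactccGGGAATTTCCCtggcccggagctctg
Cxcl2 (chr5:90903787-90903827, plus strand): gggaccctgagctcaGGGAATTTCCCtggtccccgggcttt
Nfkbia (chr12:55492652-55492691, minus strand): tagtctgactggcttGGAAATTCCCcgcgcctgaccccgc
Cxcl1 and Cxcl2 hold the same capital letters, which contain 2 overlapping matches, first at 71 and 97 bases before the start. The Nfkbia match begins 29 bases before the start, and Tnfaip3 holds matches at 125 and 12 bases before it. With both strands searched, 4 of the 7 members held an NF-kB consensus match, whereas 8.46% of 32851 mouse windows of the same length did. The C/EBP core TTNNGNAA was found in 4 of the 7 members and in 40.7% of all windows, and TATAAA in 4 of the 7 and in 13.6% of all windows. Relative to the start, TATAAA stood at -31 in Il1b, -225 in Tnfaip3, 19 in Nfkbia and 21 in Cebpb. In Nfkbia and Cebpb it thus lay after the start. No C/EBP match overlapped an NF-kB match in these members. A match is a description of letters and not evidence of binding.

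The members differed widely in level. Per kilobase of summed exon length, mean CPM over the 28 libraries was 39.7 for Cebpb, 23.4 for Nfkbia, 16.7 for Cxcl1, 3.67 for Nfkbiz, 2.16 for Il1b, 2.08 for Ccl2, 1.59 for Tnfaip3, 1.01 for Zc3h12a and 0.325 for Cxcl2. The order was not the same in both tissues. Cxcl1 stood above Nfkbia in tumors, at 23.6 and 19.8 CPM per kilobase, and below it in non-tumor liver, at 9.82 and 26.9 CPM per kilobase. For each of the 9 members the 8 groups were also ordered by mean CPM, and every neighbouring pair of groups in every order had overlapping ranges.

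**Figure D1:**
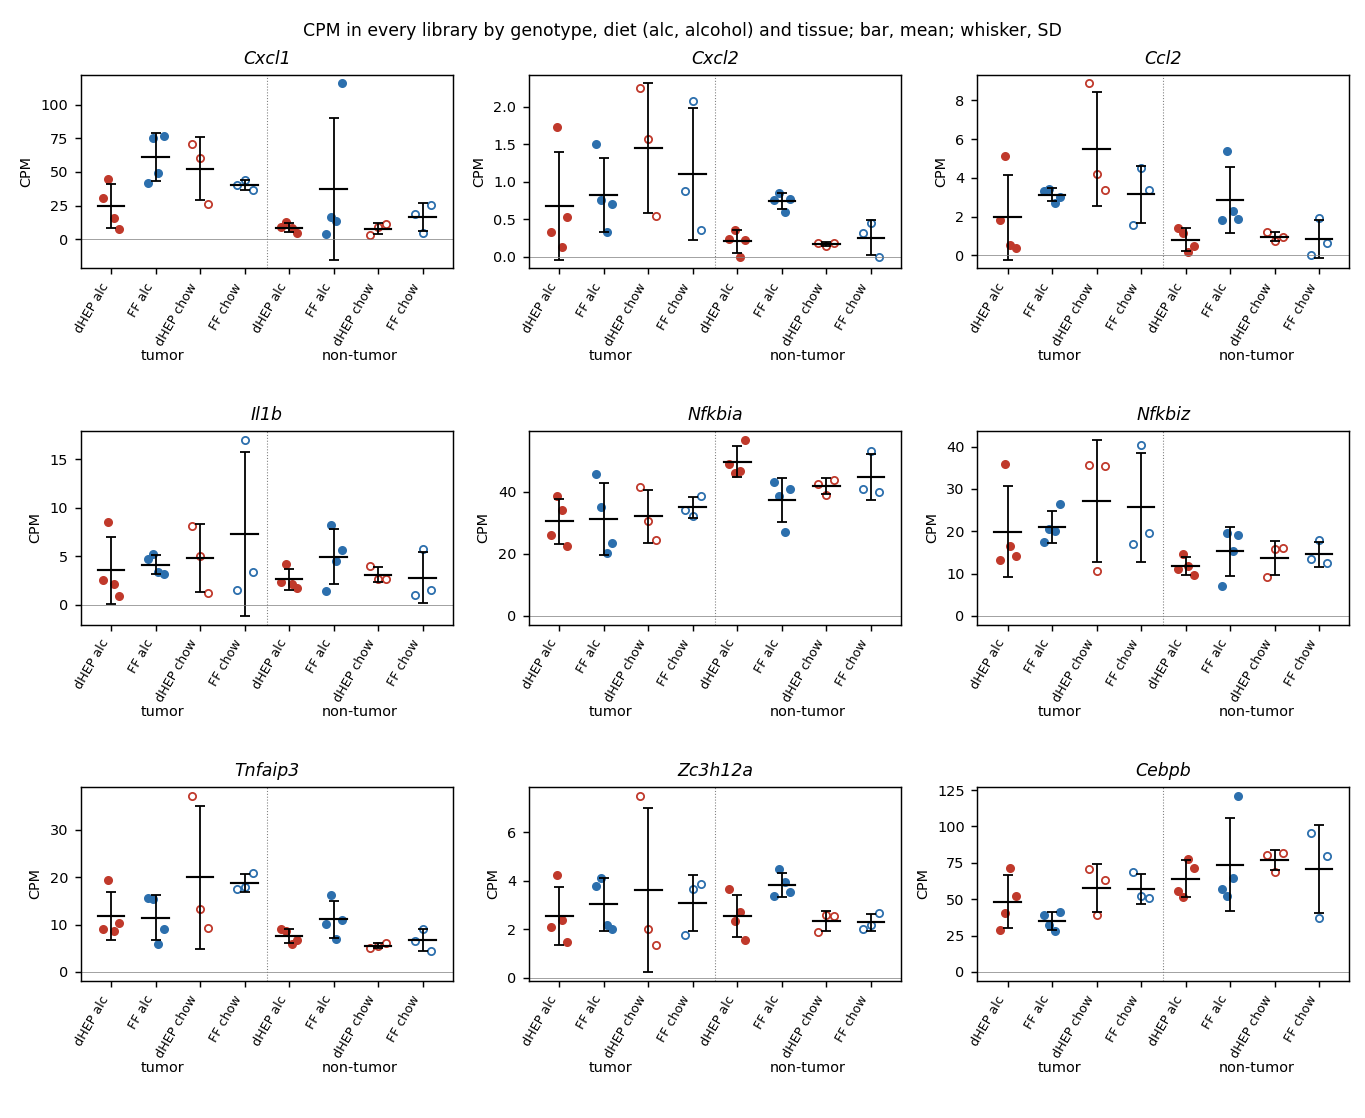
CPM of each of the 9 members (1 panel each, vertical axis from 0) in every library, by genotype, diet and tissue; red points are dHEP and blue points FF libraries, filled points alcohol and open points chow, the bar is the group mean and the whisker its SD (n = 4 on alcohol, n = 3 on chow). Cxcl1 in the non-tumor library FF-595 stands at 115.9 CPM, and Tnfaip3 in the tumor library labelled dHEP-155 at 37.2 CPM.

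Tumors and non-tumor liver differed at most of the members, as they did at most of all genes tested. Averaged over the 4 genotype and diet groups, 5 of 9 members were higher in tumors (Cxcl1, Cxcl2, Ccl2, Nfkbiz and Tnfaip3), 2 were lower (Nfkbia and Cebpb), and Il1b and Zc3h12a did not pass the test. Cxcl2 entered the test through tumors alone, since it reached 1 CPM in 5 tumors and in 0 non-tumor livers, so its place in this count is no support. Over all 13503 genes tested, 58.5% were called in the same comparison, 37.6% as higher and 20.9% as lower in tumors. The median difference was 0.53 over the members and 0.12 over all genes. The members' median is the value of Cxcl2 itself, so it is no support either. With median-of-ratios scaling the median over all genes was 0.02, the same 7 members were called, and 51.4% of all calls were higher in tumors, against 64.2% with CPM as deposited. Within single groups, the tissues did not overlap for 21.2% of all genes in dHEP alcohol and 38.5% in dHEP chow. In FF alcohol the share was 28.3% and in FF chow 46.3%. Each lack of overlap between tissues given below is to be read beside these shares.

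Cxcl1 (ENSMUSG00000029380, chr5:90891241-90893115) encodes a ligand of the neutrophil receptor Cxcr2. Its lowest, median and highest values were 7.71, 42.9 and 76.4 CPM in tumors, against 3.47, 10.1 and 116 CPM in non-tumor liver (n = 14 each). Most tumors lay above most non-tumor livers, and the ranges overlapped: tumors dHEP-550 and dHEP-549 read 7.715 and 16.08 CPM, while non-tumor FF-595, FF-159 and FF-157 read 115.9, 25.53 and 19.12 CPM. Cxcl1 averaged 44.3 ± 21.0 CPM in tumors and 18.4 ± 28.8 CPM in non-tumor liver, a difference of 1.73 ± 0.36 (adjusted p = 0.00023). It was 1.62 with median-of-ratios scaling and 1.57 (adjusted p = 0.0011) without the tumors labelled dHEP-520 and dHEP-155. Cxcl1 was higher in the tumor in 10 of the 11 animals with both tissues, FF-595 being the exception.

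Within groups, Cxcl1 was called only in dHEP mice on chow, where tumors held 70.51, 60.61 and 26.00 CPM and non-tumor liver 3.468, 8.962 and 11.30 CPM in dHEP-155, dHEP-164 and dHEP-165. All tumors there lay above all non-tumor livers (2.59 ± 0.76, adjusted p = 0.014), and without the tumor labelled dHEP-155 the difference was 2.32 with an adjusted p of 0.065, and without the non-tumor library of that animal 2.15 with an adjusted p of 0.071. In FF mice on alcohol Cxcl1 read 41.67 CPM in the tumor and 4.106 CPM in the non-tumor liver of FF-503, 75.57 and 16.42 CPM in FF-523, 49.60 and 13.38 CPM in FF-581, and 76.44 and 115.9 CPM in FF-595. The groups overlapped through FF-595 alone, and the difference of 1.60 ± 0.66 had an adjusted p of 0.079. It passed with the animal as a replicate block (adjusted p = 0.045) and without the non-tumor library FF-595 (2.46, adjusted p = 0.0027).

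In dHEP mice on alcohol it read 31.04 CPM in the tumor and 8.870 CPM in the non-tumor liver of dHEP-518, 44.57 and 12.95 CPM in the libraries labelled dHEP-520, 16.08 and 8.007 CPM in dHEP-549, and 7.715 and 4.762 CPM in dHEP-550. The tumor was the higher tissue in each of the 4 mice, but the ranges overlapped and the difference of 1.23 ± 0.66 did not pass (adjusted p = 0.2); with the replicate block its SE was 0.23 and its adjusted p 0.023. FF mice on chow gave a difference of 1.49 ± 0.76 (adjusted p = 0.14), with tumors at 36.85 to 44.04 CPM and non-tumor liver at 4.891 to 25.53 CPM, without overlap.

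Cxcl2 (ENSMUSG00000058427, chr5:90903871-90905938), the neighbouring gene, encodes another Cxcr2 ligand and was the least abundant member. It ranged from 0.135 to 2.25 CPM in tumors (median 0.735) and from 0 to 0.848 CPM in non-tumor liver (median 0.275). It was listed at 0 in the non-tumor libraries dHEP-549 and FF-159, where 3 reads correspond to 0.245 and 0.178 CPM. Averages of 0.979 ± 0.705 CPM in tumors and 0.364 ± 0.281 CPM in non-tumor liver gave a difference of 0.53 ± 0.14 (adjusted p = 0.0032), and 0.40 (adjusted p = 0.01) without the tumors labelled dHEP-520 and dHEP-155. No non-tumor library reached 1 CPM, so Cxcl2 was tested only because of its tumor values; with no filter on low values the difference was also 0.53 (adjusted p = 0.0035). Cxcl2 was higher in the tumor in 8 of 11 animals, and the 3 with less in the tumor were FF-523, FF-581 and FF-595, all on alcohol. In dHEP mice on chow, tumors held 2.251, 1.567 and 0.5403 CPM and non-tumor liver 0.1874, 0.1481 and 0.1883 CPM. These did not overlap (a difference of 1 ± 0.31, adjusted p = 0.019), and the adjusted p was 0.12 without the tumor labelled dHEP-155, 0.051 without the non-tumor library dHEP-164 and 0.052 with sample quality weights. In FF mice on chow the difference was 0.68 ± 0.31 (adjusted p = 0.098), and without tumor FF-169 it was 0.95 and was called (adjusted p = 0.035). On alcohol Cxcl2 averaged 0.682 ± 0.717 CPM in tumors and 0.208 ± 0.152 CPM in non-tumor liver of dHEP mice (0.40 ± 0.27, adjusted p = 0.31), and 0.827 ± 0.492 CPM in tumors and 0.743 ± 0.107 CPM in non-tumor liver of FF mice (0.03 ± 0.27, adjusted p = 0.95).

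Ccl2 (ENSMUSG00000035385, chr11:82035571-82037453) encodes the main ligand of the monocyte receptor Ccr2. Its lowest, median and highest values were 0.399, 3.36 and 8.87 CPM in tumors and 0, 1.19 and 5.41 CPM in non-tumor liver. Tumors were mostly above 1 CPM (12 of 14 libraries, against 8 of 14 non-tumor libraries), and the difference was 0.89 ± 0.22 (adjusted p = 0.0012; 3.30 ± 2.12 CPM in tumors, 1.43 ± 1.33 CPM in non-tumor liver). Without the tumors labelled dHEP-520 and dHEP-155 it was 0.70 (adjusted p = 0.0029). In dHEP mice on chow Ccl2 read 8.874, 4.204 and 3.377 CPM in tumors and 1.218, 0.7407 and 0.9415 CPM in non-tumor liver, with every tumor above every non-tumor liver (1.64 ± 0.46, adjusted p = 0.011); without the tumor labelled dHEP-155 the difference was 1.29 with an adjusted p of 0.08. FF mice on chow held 1.578, 4.488 and 3.383 CPM in tumors and 0, 1.902 and 0.6516 CPM in non-tumor liver. The library listed at 0 was FF-157, where 3 reads correspond to 0.313 CPM. These ranges overlapped, and the call (1.23 ± 0.46, adjusted p = 0.047) was lost without tumor FF-168 or FF-169 or without non-tumor library FF-157 or FF-159 (adjusted p 0.11 to 0.23).

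Il1b (ENSMUSG00000027398, chr2:129364570-129371139, minus strand) encodes the inflammasome-processed cytokine IL-1 beta, and did not pass in any comparison. It ranged from 0.931 to 17.0 CPM in tumors (median 3.41) and from 1.04 to 8.21 CPM in non-tumor liver (median 2.65), a difference of 0.29 ± 0.30 (adjusted p = 0.41). The highest value was in tumor FF-168. Of the 11 animals with both tissues, 5 had more Il1b in the tumor and 6 less. An antisense gene, Il1bos, overlaps Il1b, and how the authors counted strands is not given in the sources used here.

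Nfkbia (ENSMUSG00000021025, chr12:55489410-55492647, minus strand) encodes IkB-alpha, which holds NF-kB in the cytoplasm. It was lower in tumors, at 20.2, 33.1 and 45.7 CPM (lowest, median, highest) against 27.0, 42.8 and 56.8 CPM in non-tumor liver. The ranges overlapped, and the spread within each tissue was narrow, the highest library being 2.26 times the lowest in tumors and 2.11 times in non-tumor liver. Nfkbia averaged 31.9 ± 7.73 CPM in tumors and 43.4 ± 7.14 CPM in non-tumor liver (-0.44 ± 0.11, adjusted p = 0.002), and it was lower in the tumor in 10 of 11 animals, all but FF-503. In the dHEP mice on alcohol, in the order of animals used for Cxcl1, it read 26.15, 38.67, 34.04 and 22.61 CPM in tumors and 49.02, 46.12, 46.74 and 56.76 CPM in non-tumor liver. Every tumor there lay below every non-tumor liver (-0.72 ± 0.21, adjusted p = 0.018), though the call was lost with the replicate block (adjusted p = 0.056) and without tumor dHEP-550 (-0.59, adjusted p = 0.064) or non-tumor library dHEP-550 (-0.65, adjusted p = 0.053).

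Nfkbiz (ENSMUSG00000035356, chr16:55811375-55838899, minus strand) encodes IkB-zeta, a nuclear cofactor that NF-kB needs at a set of secondary targets. It held 10.6, 19.7 and 40.4 CPM in tumors (lowest, median, highest) and 7.15, 14 and 19.5 CPM in non-tumor liver. The libraries above 35 CPM were all tumors, namely those labelled dHEP-520, dHEP-155, dHEP-165 and FF-168. Averages of 23.0 ± 9.86 CPM in tumors and 13.8 ± 3.78 CPM in non-tumor liver gave a difference of 0.65 ± 0.19 (adjusted p = 0.006), or 0.51 (adjusted p = 0.022) without the tumors labelled dHEP-520 and dHEP-155. It was higher in the tumor in 10 of 11 animals, all but dHEP-164, and it was called in no single group.

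Tnfaip3 (ENSMUSG00000019850, chr10:19000910-19015657, minus strand) encodes A20, a ubiquitin-editing enzyme that shuts off NF-kB signalling. It held 5.95, 14.3 and 37.2 CPM in tumors (lowest, median, highest) against 4.50, 6.91 and 16.3 CPM in non-tumor liver. On average it was 15 ± 7.91 CPM in tumors and 7.98 ± 3.10 CPM in non-tumor liver (0.84 ± 0.18, adjusted p = 0.00035), and 0.65 higher (adjusted p = 0.00061) without the tumors labelled dHEP-520 and dHEP-155. The groups were not alike in their point estimates.

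On chow, Tnfaip3 read 37.22, 13.31 and 9.387 CPM in dHEP tumors and 5.061, 5.481 and 6.214 CPM in dHEP non-tumor liver (1.44 ± 0.39, adjusted p = 0.0077). FF mice on chow held 17.59, 17.90 and 20.96 CPM in tumors and 6.477, 9.148 and 4.502 CPM in non-tumor liver (1.40 ± 0.39, adjusted p = 0.0086). In neither genotype did the tissues overlap on chow. Over all genes, 38.5% did not overlap there in dHEP mice and 46.3% in FF mice. The dHEP call was lost without the tumor labelled dHEP-155 (0.89, adjusted p = 0.089) and the FF call without non-tumor library FF-159 (1.18, adjusted p = 0.054). FF mice on alcohol held 15.60, 15.32, 5.951 and 8.989 CPM in tumors and 10.11, 16.29, 7.053 and 11.01 CPM in non-tumor liver, a difference of 0.00 ± 0.34 (adjusted p = 0.99), and 3 of these 4 animals had less in the tumor. The difference between the diets in the tissue effect was -1.15 ± 0.36 averaged over genotypes, with an adjusted p of 0.49.

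Zc3h12a (ENSMUSG00000042677, chr4:125118423-125127840, minus strand) encodes Regnase-1, an RNase that degrades inflammatory mRNAs. It ranged from 1.35 to 7.5 CPM in tumors (median 2.27) and from 1.54 to 4.47 CPM in non-tumor liver (median 2.63), and the tumor labelled dHEP-155 held the highest value. The difference was 0.05 ± 0.17 (adjusted p = 0.82), and its sign turned with median-of-ratios scaling, with sample quality weights and without either of the tumors labelled dHEP-155 and dHEP-520. Of 11 animals, 3 had more in the tumor and 8 less.

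Cebpb (ENSMUSG00000056501, chr2:167688915-167690418) encodes C/EBP-beta, a factor of the acute phase that IL-17 induces and that acts with NF-kB. It was lower in tumors, at 27.9, 46.0 and 71.6 CPM (lowest, median, highest) against 37.0, 70.2 and 121 CPM in non-tumor liver. Cebpb averaged 48.4 ± 15.3 CPM in tumors and 71.1 ± 21.2 CPM in non-tumor liver (-0.53 ± 0.16, adjusted p = 0.006), and all 11 animals with both tissues had less in the tumor. In FF mice on alcohol it read 39.08, 32.23, 27.93 and 41.55 CPM in tumors and 56.98, 52.36, 64.78 and 121.1 CPM in non-tumor liver, in the order of animals used for Cxcl1. These did not overlap (-0.98 ± 0.29, adjusted p = 0.015; 0.0046 with the replicate block), and the call was lost without tumor FF-581 (-0.88, adjusted p = 0.051) or non-tumor library FF-595 (-0.72, adjusted p = 0.078). The antisense gene Tmem189 shares exon sequence with Cebpb and reached 29.954 CPM in this table, so reads of one may stand in the count of the other if strand was not used.

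By group, the members called between tumors and non-tumor liver numbered 1 in dHEP mice on alcohol (20.4% of all genes were called there), 4 in dHEP mice on chow (27.9%), 1 in FF mice on alcohol (24.6%) and 2 in FF mice on chow (30.8%). The 4 in dHEP mice on chow include Cxcl2, which was tested through its tumor values alone and is no support. Without the tumors labelled dHEP-520 and dHEP-155 the dHEP chow count was 1, namely Ccl2 (1.29, adjusted p = 0.034). The genotype difference in the tissue effect on alcohol called 0% of genes with limma (266 at an unadjusted p below 0.05), with every member at an adjusted p of 1. The diet difference in the tissue effect also called 0% (1182 at an unadjusted p below 0.05), and all 9 members had a negative estimate, a tumor minus non-tumor difference that was lower on alcohol than on chow (members' median -0.56, all genes -0.07). None of these 9 passed, and over all genes 39.3% of estimates were positive.

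**Figure D2:**
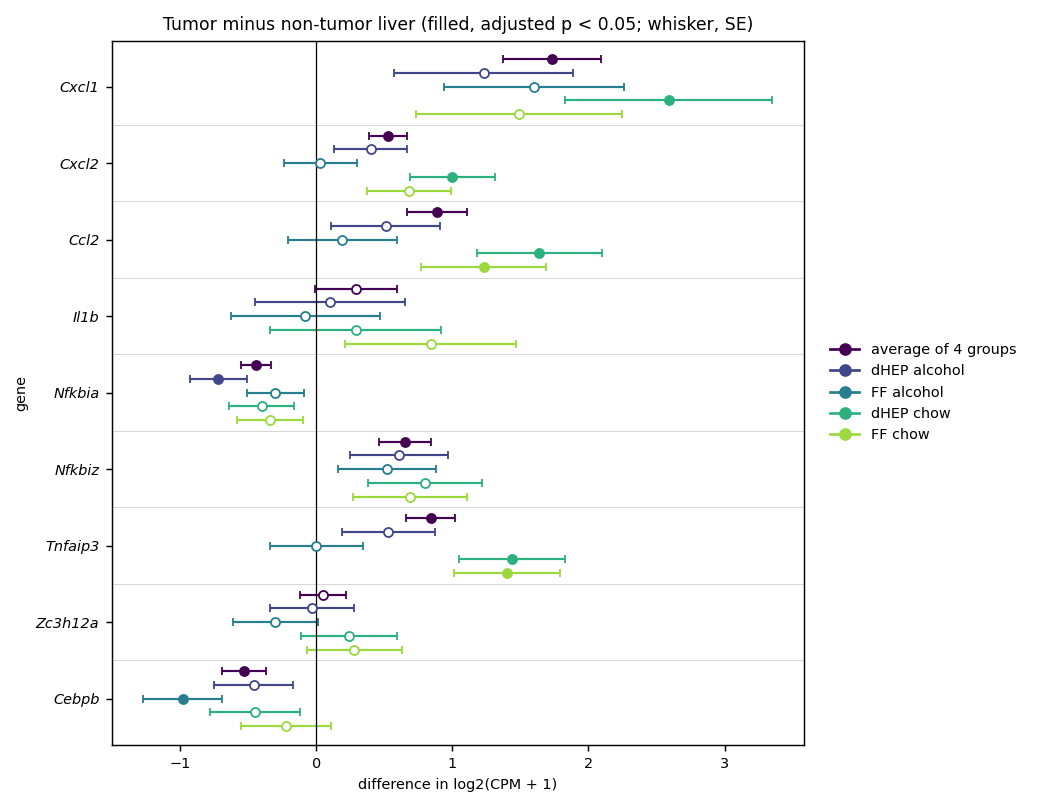
Tumor minus non-tumor difference of each member (horizontal axis, log2 of CPM + 1) averaged over the 4 groups and in each genotype and diet group; points are limma estimates, whiskers SE, and filled points have an adjusted p below 0.05. Averaged over groups, 5 members lie right of 0 and Nfkbia and Cebpb left of it among those called.

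**Figure D3:**
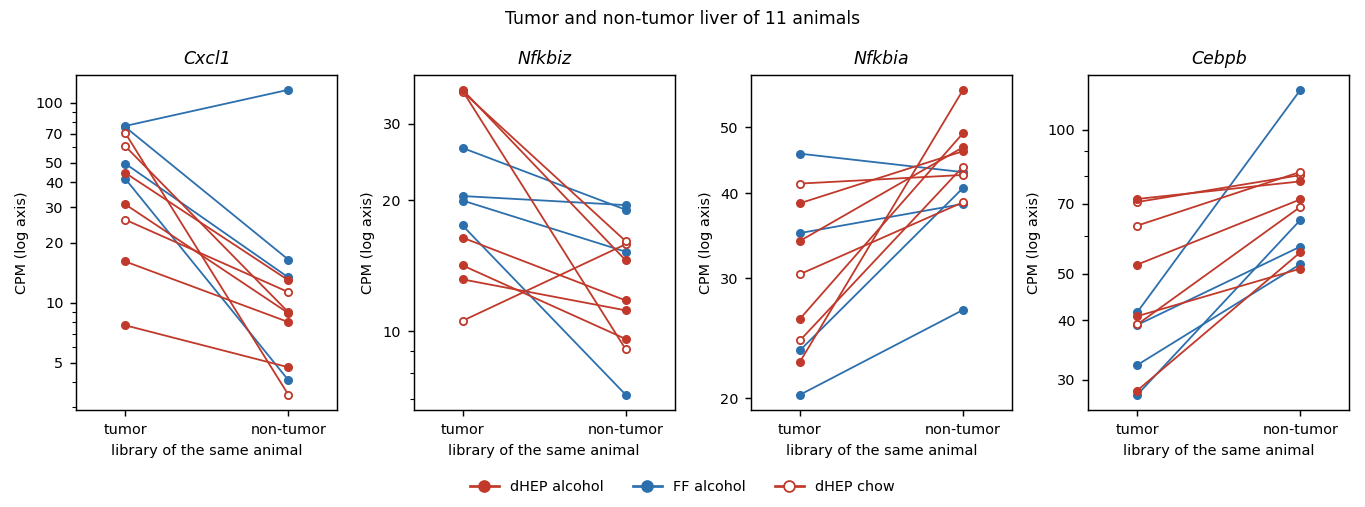
CPM on a log axis of Cxcl1, Nfkbiz, Nfkbia and Cebpb in the tumor (left) and non-tumor liver (right) of each of the 11 animals with both tissues; red lines are dHEP and blue lines FF animals. Cebpb is lower in the tumor in 11 animals and Nfkbia in 10, and Cxcl1 and Nfkbiz are higher in the tumor in 10.

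Genes of the same pathways were compared in the average over groups, and each one named here as higher or lower was called. Over all genes tested, 37.6% were called higher and 20.9% lower in tumors. The count of each list is to be read beside these shares, which several of them lie near. Among other NF-kB subunits, inhibitors and targets, 14 of 24 tested were higher in tumors and 1 was lower (median 0.53). Ier3, a survival gene, was 2.42 ± 0.41 higher (18.8 ± 26.6 CPM in tumors, 1.41 ± 0.81 CPM in non-tumor liver; adjusted p = 2.2e-05), and the subunits Relb (1.21 ± 0.21) and Nfkb2 (0.93 ± 0.17) were higher as well. Sod2, the mitochondrial superoxide dismutase, was the one lower gene, at 103 ± 27.1 CPM in tumors and 200 ± 12.9 CPM in non-tumor liver (-1 ± 0.08, adjusted p = 1.1e-09). Among other IL-17-induced genes 6 of 14 were higher and 3 lower. Lcn2, which encodes the iron-siderophore binder lipocalin-2, was 3.71 ± 0.50 higher (794 ± 765 CPM in tumors, 62.5 ± 85.9 CPM in non-tumor liver; adjusted p = 1.1e-06), and the adhesion gene Icam1 (1.18 ± 0.21) and the collagenase gene Mmp13 (1.33 ± 0.21) were higher too. The 3 lower ones were the serum amyloid genes Saa1 (-1.84 ± 0.53), Saa2 (-1.53 ± 0.53) and Saa3 (-1.63 ± 0.35), of which Saa1 and Saa2 are near-identical copies that may share reads.

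Of the receptor and proximal signalling genes, 7 of 17 were higher and 3 lower, near the shares of 37.6% and 20.9% over all genes. The kinase genes Ikbkb (0.31 ± 0.06) and Chuk (-0.37 ± 0.06) lay on opposite sides. Of other chemokines, 11 of 18 were higher, such as Ccl9 (1.3 ± 0.15), and 3 were lower, namely Cxcl12 (-1.71 ± 0.13), Ccl24 (-0.99 ± 0.15) and Ccl21a (-0.78 ± 0.13). The chemokine receptors Ccr2 (1.14 ± 0.29), Ccr1 (0.85 ± 0.19) and Cx3cr1 (1.17 ± 0.24) were higher among 5 tested. In the IL-1 family 3 of 11 were higher, among them the receptor antagonist Il1rn (3.07 ± 0.33) and the alarmin Il33 (1.93 ± 0.37), and 3 were lower, among them the co-receptor Il1rap (-1.32 ± 0.13) and Il18 (-0.85 ± 0.10). The other C/EBP genes split into Ddit3 (1.56 ± 0.26) and Cebpg (0.47 ± 0.09) above and Cebpa (-0.69 ± 0.14) and Cebpe (-1.36 ± 0.15) below. Regulators of mRNA decay gave 4 of 10 higher, among them Zc3h12d (1.16 ± 0.22) and N4bp1 (0.56 ± 0.10), and 2 lower, among them Zc3h12c (-0.25 ± 0.09). Immediate early genes, which respond within minutes to stimulation and to tissue handling, gave 10 of 16 higher and 2 lower, with Egr1 at 2.29 ± 0.28, Btg2 at 2.34 ± 0.31 and Klf6 at 1.72 ± 0.18.

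Markers of other cell types were counted in the same contrast. Of all genes tested, 37.6% were called higher and 20.9% lower in tumors there. Of the monocyte and recruited macrophage markers 6 of 10 were higher in tumors and none lower, and their sum ran from 81.6 to 3470 CPM in tumors (median 407.4) and from 80.32 to 268.2 CPM in non-tumor liver (median 139.3), with no marker at 0 in any whole group. Kupffer cell markers gave 7 of 10 lower and none higher, with sums of 108.3 to 576.1 CPM in tumors and 294.1 to 807.4 CPM in non-tumor liver. Of the neutrophil markers 5 were abundant enough to test, and limma called none (Cxcr2 alone had an unadjusted p below 0.05); they summed to 2.594 to 44.38 CPM in tumors and 3.139 to 25.83 CPM in non-tumor liver, and Ly6g was at 0 in every library of 7 of the 8 groups. B and plasma cell markers, of which 4 of 5 tested were higher and none lower, summed to 10.65 to 832.6 CPM in tumors (median 46.77) and 1.409 to 21.63 CPM in non-tumor liver (median 12.06). T and NK cell markers, with 4 of 6 higher, summed to 1.995 to 57.18 CPM in tumors and 2.563 to 8.154 CPM in non-tumor liver. Cholangiocyte markers, with 2 of 6 higher (Sox9 and Spp1), summed to 11.31 to 3184 CPM in tumors (median 161.1) and 28.19 to 112.6 CPM in non-tumor liver (median 35.17). Spp1 is also in the monocyte list and reached 3140 CPM in dHEP chow tumors, so the highest sums of both lists rest mostly on it. Of the stellate cell and fibroblast markers 6 of 10 were higher and 2 lower, with sums of 194.3 to 1005 CPM in tumors and 192.1 to 547 CPM in non-tumor liver, and of the endothelial markers 3 of 10 were higher and 2 lower. Immediate early genes summed to 307.8 to 999.5 CPM in tumors and 168.5 to 446.9 CPM in non-tumor liver. The part of cell makeup and of handling in the members' differences was not tested.

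Tumors varied among themselves. The tumor labelled dHEP-155 ranked first of 14 tumors for Cxcl2, Ccl2, Tnfaip3 and Zc3h12a, and also held the highest sums of monocyte markers (3470 CPM) and cholangiocyte markers (3184 CPM). Spp1 is in both lists and reached 3140 CPM in dHEP chow tumors, so both sums are mostly this 1 gene. The tumor labelled dHEP-520 ranked second for Ccl2, Il1b, Nfkbiz and Zc3h12a, with monocyte markers at 1042 CPM. Most of that sum was also Spp1, which reached 742 CPM in dHEP alcohol tumors. FF-168 ranked first for Il1b (17.0 CPM) and Nfkbiz (40.4 CPM) and held the highest neutrophil marker sum (44.38 CPM). The lowest Ccl2, Il1b and Cxcl1 were all in the tumor dHEP-550, whose monocyte and neutrophil marker sums were also the lowest.

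After subtraction of group means, the 36 pairs of members had a median Pearson r of 0.48 over the 14 tumors, with 17 pairs above 0.5, and of 0.21 over the 14 non-tumor livers, with 8 pairs above 0.5. Without the tumors labelled dHEP-520 and dHEP-155 the median over the other 12 tumors was 0.20, with 8 pairs above 0.5. The values of a pair share library and depth, and no test was made. Ccl2 and Il1b had r = 0.83 in tumors, 0.75 without those 2 tumors, and 0.76 in non-tumor liver. Tnfaip3 and Zc3h12a had r = 0.88 in tumors, 0.64 without those 2 tumors, and 0.18 in non-tumor liver.

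The genes most alike over the 28 libraries, among 9750 genes of mean 5 CPM or more, are given with r over all libraries, over the 14 tumors and over the 14 non-tumor livers. For Cxcl1 they were Xbp1 (0.79, 0.86 and 0.78), Slc30a5 (0.78, 0.78 and 0.79) and Nuak2 (0.75, 0.76 and 0.76). For Cxcl2 they were Sat1 (0.84, 0.89 and 0.61), Herc4 (0.84, 0.86 and 0.61) and Foxj3 (0.81, 0.82 and 0.78). Ccl2 was most like Nrros (0.92, 0.91 and 0.92), Csf1 (0.92, 0.96 and 0.85) and Frmd4a (0.90, 0.97 and 0.78). Il1b was most like Ctss (0.87, 0.90 and 0.81), Plekho2 (0.86, 0.90 and 0.78) and C3ar1 (0.84, 0.94 and 0.59). Nfkbia ran with Gsdmd (0.77, 0.76 and 0.79), Ifi47 (0.75, 0.86 and 0.51) and Trappc9 (0.75, 0.81 and 0.48). Nfkbiz ran with Zfp426 (0.90, 0.93 and 0.83), Rexo4 (0.83, 0.87 and 0.77) and Angptl8 (0.82, 0.84 and 0.90). Those for Tnfaip3 were Usp25 (0.89, 0.95 and 0.66), Rgp1 (0.87, 0.90 and 0.78) and Plagl2 (0.87, 0.87 and 0.86). Those for Zc3h12a were Mapkapk3 (0.91, 0.95 and 0.73), Ap1g2 (0.87, 0.95 and 0.40) and Sept8 (0.87, 0.94 and 0.45). Cebpb came closest to Scara5 (0.80, 0.74 and 0.83), Abcb10 (0.74, 0.72 and 0.82) and Rangap1 (0.74, 0.64 and 0.85). For Zc3h12a the likeness to Ap1g2 and Sept8 was thus lower in non-tumor liver than in tumors. Without the tumors labelled dHEP-520 and dHEP-155 the r of these 27 pairs over 26 libraries was 0.64 to 0.89, the lowest being Zc3h12a with Sept8.

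No member passed the test between genotypes, which asks whether the receptor on hepatocytes bears on these genes. Il17ra itself did not pass in non-tumor liver, at -0.92 ± 0.22 on chow (adjusted p = 0.72) and -0.96 ± 0.15 averaged over diets (adjusted p = 0.085). Averaged over diets, with 7 libraries per genotype, Il17ra ranked 2 of 12651 genes by limma p (1.3e-05 unadjusted). At these sample sizes, 3 or 4 libraries per group, the adjusted threshold thus missed the deleted gene in non-tumor liver. The test therefore cannot decide that question for the members. In non-tumor liver on alcohol limma called 0% of 12651 genes (1077 at an unadjusted p below 0.05). Of the 8 members tested there, 7 had a negative estimate and Nfkbia a positive one (median -0.47 over the members and -0.05 over all genes). Over all genes 37.3% of estimates were positive. Cxcl2 was below 1 CPM in all non-tumor libraries and was not tested in that tissue.

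Ccl2 in non-tumor liver on alcohol read 1.425, 1.164, 0.1634 and 0.4608 CPM in dHEP mice and 1.825, 5.407, 2.307 and 1.857 CPM in FF mice. Every dHEP library lay below every FF library, and the difference was -1.07 ± 0.34 (adjusted p = 0.44). Nfkbia read 49.02, 46.12, 46.74 and 56.76 CPM in dHEP mice and 42.96, 38.58, 26.96 and 40.73 CPM in FF mice, here with every dHEP library above every FF library (0.42 ± 0.14, adjusted p = 0.46). Of all tested genes 3.91% showed no overlap in this comparison, and 3 of the 9 members did if the untested Cxcl2 is counted. Cxcl2 read 0.2376, 0.3637, 0 and 0.2304 CPM in dHEP mice and 0.7604, 0.8484, 0.5932 and 0.7685 CPM in FF mice; with no filter on low values its difference was -0.54 ± 0.11 with an adjusted p of 0.33.

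The remaining members overlapped. Cxcl1 averaged 8.65 ± 3.37 CPM in dHEP and 37.5 ± 52.6 CPM in FF mice (-1.1 ± 0.75, adjusted p = 0.73), and its estimate was between -1.75 and -0.24 when single libraries were left out. Zc3h12a (-0.47 ± 0.18), Tnfaip3 (-0.46 ± 0.23), Il1b (-0.60 ± 0.41), Nfkbiz (-0.27 ± 0.27) and Cebpb (-0.14 ± 0.29) had adjusted p values of 0.5 or more.

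Some of the other lists lay on the same side in that comparison without a called gene. All 9 tested genes of the other IL-17-induced list had negative estimates (median -0.83), with Lcn2 at -2.09 (adjusted p = 0.37), as did 16 of 21 other NF-kB genes, 12 of 14 immediate early genes (median -0.67) and all 9 monocyte markers. The other IL-17-induced list summed to 317.1 to 638.3 CPM in dHEP mice. In FF mice its sum was 3330 CPM in FF-595 and 1733 CPM in FF-523. FF-503 (433.7 CPM) and FF-581 (375.7 CPM) lay within the dHEP range. Over all genes in that comparison 37.3% of estimates were positive. Lcn2 is also in the tumor marker list, so these lists are not independent. Tumor markers were also lower in estimate in dHEP non-tumor liver, 7 of 7 tested, with sums of 48.8 to 84.5 CPM in dHEP and 133 to 734 CPM in FF mice. The FF sums did not overlap the dHEP sums, and the part of tumor RNA in non-tumor liver was not tested directly. Without non-tumor FF-581 and FF-523, whose tumor marker sums were high, the estimates were -0.72 for Ccl2 and 0.24 for Nfkbia. Monocyte marker sums were 110 to 192 CPM in dHEP and 132 to 268 CPM in FF mice, and immediate early sums 168.5 to 419 CPM in dHEP and 269 to 427 CPM in FF mice. Kupffer cell and endothelial markers were mixed in their means. In dHEP and FF mice Cd163 averaged 53.5 and 28.7 CPM and Stab2 125 and 88.1 CPM. On the other side, Cd5l averaged 150 and 186 CPM and Pecam1 26.3 and 32.5 CPM.

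On chow the genotypes gave 0% of genes called in non-tumor liver (588 at an unadjusted p below 0.05), and each member had an adjusted p of at least 0.99. Ccl2 averaged 0.967 ± 0.240 CPM in dHEP and 0.851 ± 0.967 CPM in FF mice on chow. The genotype effect did not differ between diets at the threshold, with 0% of genes called (870 at an unadjusted p below 0.05), Ccl2 at -1.28 ± 0.53 and Nfkbia at 0.51 ± 0.21 (adjusted p = 0.72 for each). Averaged over diets, 0% of genes were called in non-tumor liver with limma (668 at an unadjusted p below 0.05), and the members' adjusted p values were 0.92 or more.

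In tumors on alcohol 0% of 13205 genes were called between genotypes (833 at an unadjusted p below 0.05). Cxcl1 averaged 24.8 ± 16.3 CPM in dHEP tumors and 60.8 ± 17.8 CPM in FF tumors, the smallest p among the members (-1.47 ± 0.44, adjusted p = 0.67). The ranges overlapped only through the tumor labelled dHEP-520, at 44.57 CPM, against 41.67 CPM in FF-503. Without the tumors labelled dHEP-520 and dHEP-155 the difference was -1.83 (adjusted p = 0.13), and that of Ccl2 was -1.17 ± 0.29 (adjusted p = 0.14) in place of -0.74 ± 0.42 (adjusted p = 0.84). Tnfaip3 (0.06 ± 0.39) and Nfkbia (0.01 ± 0.25) had estimates near 0.

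On chow, 0% of genes were called between dHEP and FF tumors (378 at an unadjusted p below 0.05), and all members had an adjusted p of 1. Cxcl1 averaged 52.4 ± 23.4 CPM in dHEP and 40.3 ± 3.61 CPM in FF tumors on chow, on the other side of its order on alcohol; that difference between the diets was -1.73 ± 0.68 with an adjusted p of 0.99 (0% of genes called, 653 at an unadjusted p below 0.05). Averaged over diets 0% of genes were called in tumors (403 at an unadjusted p below 0.05), with Cxcl1 at -0.61 ± 0.34 (adjusted p = 1).

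**Figure D4:**
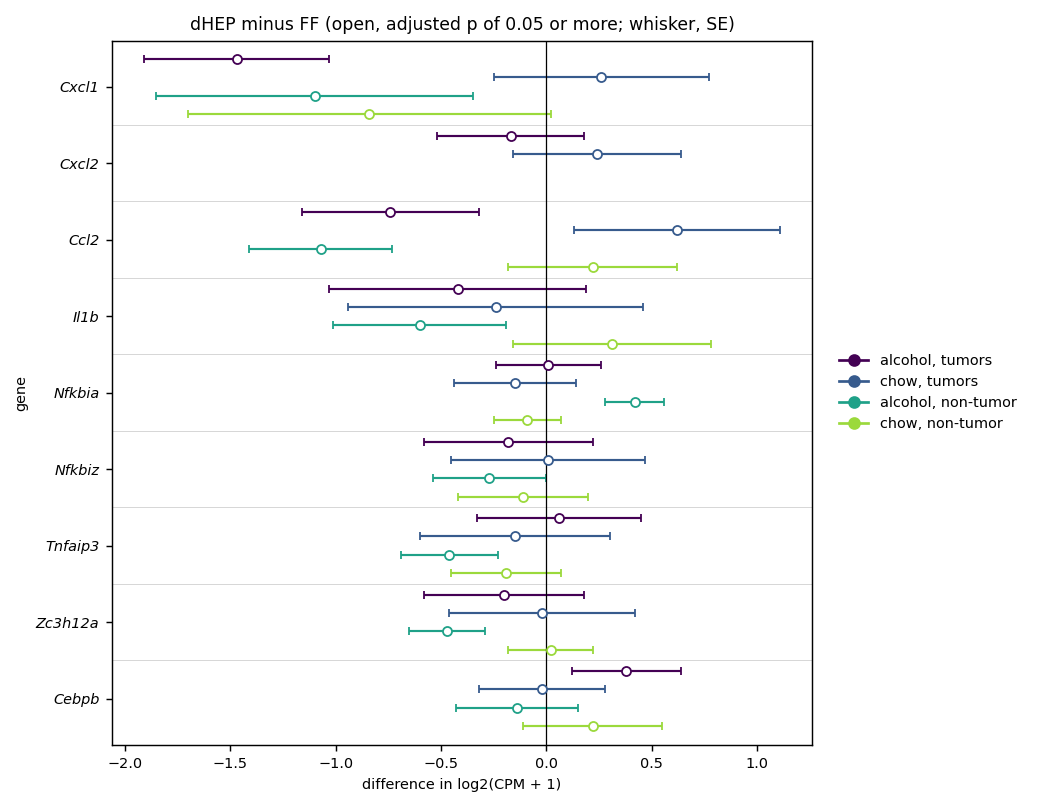
dHEP minus FF difference of each member (horizontal axis, log2 of CPM + 1) in tumors and non-tumor liver for each diet; points are limma estimates and whiskers SE. All points are open, since no member had an adjusted p below 0.05, and Ccl2 (-1.07) and Nfkbia (0.42) in non-tumor liver on alcohol lie on opposite sides of 0.

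No member passed between alcohol and chow, a contrast in which diet and cohort cannot be told apart. In non-tumor liver 0.656% of genes were called in dHEP mice, 0.577% in FF mice and 3.66% averaged over genotypes. Zc3h12a in FF mice was at 3.346, 4.472, 3.955 and 3.522 CPM with alcohol, against 1.985, 2.174 and 2.666 CPM with chow. All alcohol libraries lay above all chow libraries (0.56 ± 0.19, adjusted p = 0.2). Of all tested genes 9.3% showed no overlap in this comparison. Ccl2 in the same mice averaged 2.85 ± 1.72 CPM on alcohol and 0.851 ± 0.967 CPM on chow (1.1 ± 0.37, adjusted p = 0.2), while in dHEP mice it averaged 0.803 ± 0.590 CPM on alcohol and 0.967 ± 0.240 CPM on chow (-0.18 ± 0.37, adjusted p = 0.89). Tnfaip3 averaged over genotypes was 0.51 ± 0.17 higher in estimate on alcohol (9.35 ± 3.30 CPM on alcohol, 6.15 ± 1.64 CPM on chow; adjusted p = 0.14).

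In tumors 0.00757% of genes were called between diets in dHEP mice, 0% in FF mice (718 at an unadjusted p below 0.05) and 0% averaged over genotypes (1519 at an unadjusted p below 0.05). All 9 members had a negative estimate averaged over genotypes, with a median of -0.32 against -0.1 over all genes. Of all genes 31.7% had a positive estimate. Cebpb in FF tumors was at 39.08, 32.23, 27.93 and 41.55 CPM with alcohol, against 68.58, 52.07 and 50.51 CPM with chow, without overlap (-0.68 ± 0.28, adjusted p = 0.89). Tnfaip3 in FF tumors did not overlap between diets either (11.5 ± 4.78 CPM on alcohol, 18.8 ± 1.86 CPM on chow, a difference of -0.75 ± 0.42, adjusted p = 0.95). Of all tested genes 10.9% showed no overlap between diets in FF tumors. In dHEP tumors Ccl2 (-1.3 ± 0.46, adjusted p = 0.34) and Cxcl1 (-1.19 ± 0.48, adjusted p = 0.4) had the largest estimates among the members; without the tumors labelled dHEP-520 and dHEP-155 they were -1.39 (adjusted p = 0.49) and -1.28 (adjusted p = 0.63).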

How the data were processed

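Bulk RNA of 14 tumors and 14 non-tumor livers (8 groups) was sequenced; the labels name polyA RNA and a stranded total RNA kit, so the RNA fraction is unsettled. The authors deposited CPM per gene, and the submitters' processing notes name RSEM 1.3.0, STAR 2.5.1a and the build GRCm38. Each column sums to 1000000. Symbols were found for 21653 of 22187 identifiers. Depth was estimated from the step between low values; 84.91% to 86.87% of values up to 20 reads were whole to within 0.1 read, so no count model was used.

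limma 3.58.1 (R 4.3.3, variance trend) was fitted to log2(CPM + 1) of genes reaching 1 CPM in 3 or more libraries of the fit, within each tissue for genotype and diet and over all 28 libraries for tissue. Adjusted p values (Benjamini-Hochberg) span all tested genes, and measure only the spread between these samples. Summaries and figures used Python 3.11.15, pandas 2.3.3, numpy 2.4.6 and matplotlib 3.10.9.

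Named besides the members were the 3 genes most alike by r after subtraction of group means, and from each list up to 4 genes of smallest p. The members and lists were chosen with earlier results of these data known. The number in a sample name was taken as the animal. Same-numbered tissues correlated, after subtraction of group means, at 0.16 to 0.36 in FF alcohol, at -0.11 to 0.25 in dHEP alcohol and at 0.07 to 0.19 in dHEP chow. Only in FF alcohol did every pair exceed 0.1.

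Alternatives were a pseudocount of 0.5 CPM, no filter, a filter at mean 5 CPM, scaling by median of ratios, sample quality weights, fits of the compared groups only, the replicate block, leaving out single libraries or pairs with unusual tumor marker levels, and a promoter window of 200 bases. Leaving out the tumors labelled dHEP-520 and dHEP-155 was chosen after seeing the data.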

Additional observations from a re-analysis of the deposited data

Results flagged for a closer look

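Of the 40 gene and group combinations with 4 libraries (the 9 members and Il17ra), 3 held a library far from the others by Dixon's test, which chance gives in about 1 in 20 groups. Cxcl1 stood at 115.9 CPM in the non-tumor library FF-595 on alcohol, and the next value in that group was 16.42 CPM. Ccl2 stood at 5.407 CPM in the non-tumor library FF-523 on alcohol, next to 2.307 CPM. Nfkbiz stood at 35.87 CPM in the alcohol tumor labelled dHEP-520, next to 16.41 CPM. FF-595 also held the highest sum of other IL-17-induced genes in non-tumor liver, 3330 CPM against a median of 383.8 CPM, and FF-523 the highest non-tumor sum of monocyte markers, 268.2 CPM.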

How the results depend on the processing

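Of 402 recomputed counts of called members 386 stayed within 1.5 times the reported count, and of 970 values of single members 934 kept direction and side of the threshold. In most comparisons the reported count was 0, mostly with no gene called at all. The share of counts that stayed thus says little about the counts above 0. The 7 members called between tissues on average were called under every alternative that tested them. In dHEP alcohol the count of 1 was 0 to 1 with single libraries left out. In dHEP chow the count of 4 includes Cxcl2, which was tested through its tumor values alone. The count was 2 with the filter at a mean of 5 CPM and 2 with the compared groups only. It was 1 without the tumors labelled dHEP-520 and dHEP-155 and 3 with the replicate block. With single libraries left out it was 0 to 5, 0 being without the tumor labelled dHEP-155. In FF alcohol the count of 1 was 2 with quality weights, 2 with the replicate block (Cxcl1 and Cebpb) and 0 to 1 with single libraries left out. In FF chow the count of 2 was 1 with no filter, 1 with the mean filter, 1 with the compared groups only, and 0 to 2 with single libraries left out. Between diets in non-tumor liver, averaged over genotypes, quality weights called 1 member, Tnfaip3 (adjusted p = 0.041), against 0. Signs of estimates away from 0 turned in 2 cases: Cebpb between genotypes in non-tumor liver on alcohol was 0.12 without FF-595 (range -0.27 to 0.12), and Zc3h12a between tissues was -0.04 with median-of-ratios scaling, -0.04 with quality weights, -0.15 without dHEP-520 and dHEP-155, and -0.09 to 0.14 with single libraries left out. Tnfaip3 between tissues in FF alcohol, at 0.00, took either sign, from -0.17 to 0.26 with single libraries left out and from -0.05 to 0.15 under the other alternatives, with no call. The cause of these changes was not tested.

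The replicate block over all libraries (within-animal correlation 0.171) also called 7 members between tissues, and beyond the calls named in the report the blocked fits lost or gained none of those tested (Cxcl2 fell under the filter in the blocked group fits). With 200 bases before the start only, NF-kB, C/EBP and TATA letters stood in 6.07%, 30% and 9.96% of windows. With n of 3 or 4 and members near 1 CPM, Cxcl2 and Ccl2 rest on few reads.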
